A study of Mus musculus with 10 samples.

Results

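Intraflagellar transport (IFT) and BBSome genes build and serve the cilium. They were taken here as every gene whose symbol begins with Ift or Bbs followed by a digit, together with 11 genes named singly: Bbip1, Ttc8, Mkks, Arl6, Arl3, Arl13b, Rpgr, Rpgrip1, Rpgrip1l, Cep290 and Tulp1. The rule found 31 of the 30063 genes that the array annotation names, each on 1 transcript cluster (the set of probes that reads 1 transcript locus). Arl6 and Arl13b are not analysed here. By role the 31 genes are 11 IFT-B subunits, 3 IFT-A subunits, 8 BBSome subunits, 3 chaperonin-like BBSome assembly factors, and 6 genes of the ciliary gate or of photoreceptor transport. Whole retina of C57BL/6JJmsSlc mice was measured on 10 Affymetrix whole-transcript arrays, 2 in each of 5 groups. Untreated retina was taken at postnatal day 7 and at day 17. The other 3 groups, all of day 17, had oxygen-induced retinopathy (OIR): pups breathed 75% oxygen from day 7 for 5 days, which prunes the growing retinal vessels, and were then returned to air. In 1 of these groups the eyes were not injected, and in the others they received phosphate-buffered saline (PBS) or ISOX DUAL, an inhibitor of bromodomains (the protein modules that bind acetylated lysine), in the vitreous when hyperoxia ended. All groups share the strain, and neither a dose nor the number of animals behind an array is given in the sources used here, so p-values measure the spread between arrays, which may be technical.

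Each photoreceptor carries a modified primary cilium whose tip is the light-sensitive outer segment, and every opsin molecule must pass through its narrow connecting cilium. IFT-B complexes, moved by kinesin, carry cargo toward the tip, IFT-A complexes serve the dynein-driven return, and the BBSome is a membrane coat that loads membrane proteins onto these trains and removes misplaced ones. In mouse retina the outer segments grow over the weeks after birth. Variants in many of these genes cause retinal degeneration, alone or in syndromes such as Bardet-Biedl syndrome.

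Levels are log2 values as deposited, and levels of different genes are not set against each other because probes differ. All 31 genes lay above the median of the negative control probes (5.83 to 6.11) on every array, the lowest value being 6.54. Against the 95th percentile of those probes (8.31 to 8.64), 8 genes were above it on all 10 arrays (Arl3, Bbs7, Bbs9, Ttc8, Ift22, Cep290, Rpgrip1 and Tulp1) and 14 on none, so differences of the dimmer genes may be compressed. All 31 passed the filter on low values and entered a limma fit over 23255 genes, in which a gene was called at an adjusted p under 0.05. The retina was checked by its cell type markers: the mean over 12 rod genes was 9.63 and 8.87 on the day 7 arrays and 10.87 to 11.14 on the day 17 arrays.

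**Figure D1:**
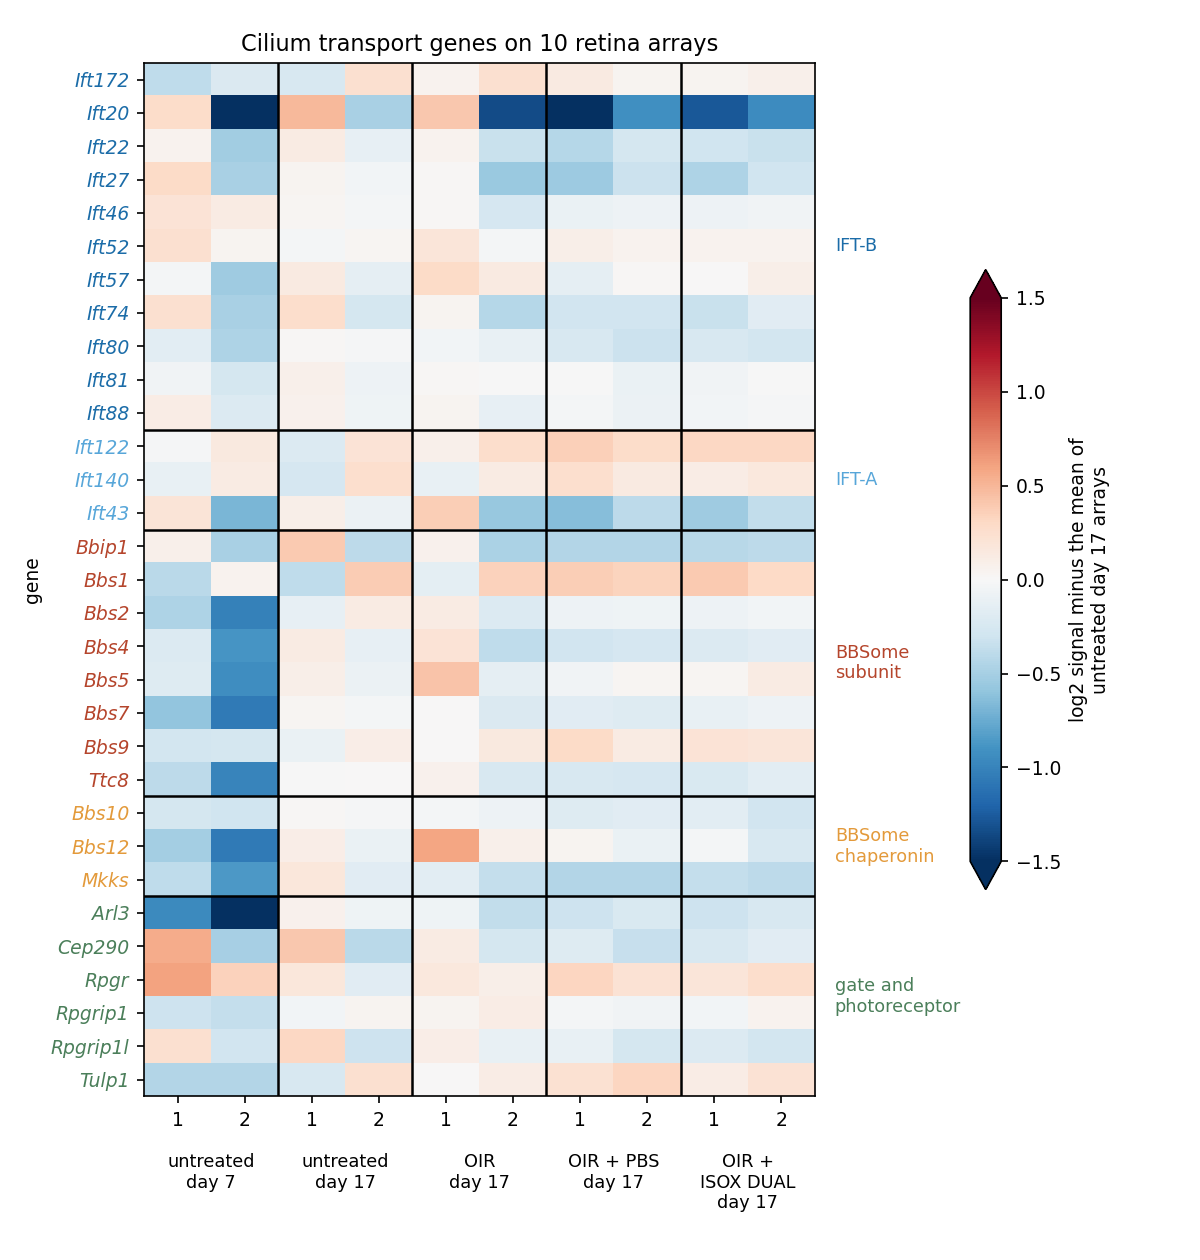
Levels of the 31 genes (rows, grouped by role) on the 10 arrays (columns, grouped by condition). The colour gives the log2 level minus that gene's mean over the untreated day 17 arrays, from blue (lower) to red (higher). The second day 7 array is the lowest for many BBSome genes, and the first arrays of the 3 uninjected groups are high for many IFT-B genes.

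The first comparison follows normal maturation, from day 7 to day 17 without treatment. In it 4 of the 31 genes rose and 0 fell, where 10.6% of all genes tested were called (5.26% higher and 5.29% lower). Arl3 rose by 2.38-fold, Bbs7 by 1.78-fold, Bbs2 by 1.67-fold and Rpgrip1 by 1.26-fold. The log2 difference was positive for 25 of the 31 genes, with a median of 0.27, against 52.0% of all genes tested and a median of 0.01. At an unadjusted p under 0.05 there were 12 of the 31 genes, against 22.8% of all genes. In bulk retina, fewer cells of a type and less RNA per cell cannot be told apart.

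Arl3, a small GTPase that releases lipid-anchored cargo inside the cilium, had the largest difference of the 31. Arl3 read 9.27 and 8.68 at day 7, 10.28 and 10.16 in untreated day 17 retina, 10.15 and 9.86 in uninjected OIR, 9.91 and 9.99 with PBS and 9.91 and 9.98 with ISOX DUAL. Both day 7 arrays lay below all 8 day 17 arrays, and the lowest day 17 value was from uninjected OIR. The log2 difference between the untreated ages was 1.25 ± 0.19 (SE, 95% interval 0.81 to 1.69; adjusted p = 0.00595, limma). The Rpgrip1 levels were 10.85 and 10.80 at day 7 and 11.12 and 11.20 at day 17 without treatment, then 11.20 and 11.26 in uninjected OIR, 11.12 and 11.11 with PBS and 11.11 and 11.21 with ISOX DUAL. Rpgrip1, which anchors the RPGR protein in the connecting cilium, was the steadiest of the 4: its 8 day 17 values span 0.16 log2, and both day 7 values lay below them. Its log2 difference was 0.33 ± 0.09 (95% interval 0.13 to 0.53, adjusted p = 0.0486).

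Bbs7 and Bbs2 encode subunits of the BBSome core that are assembled together before the rest of the coat is added. For Bbs7 the arrays gave 9.33 and 8.86 (day 7), 9.95 and 9.89 (untreated day 17), 9.93 and 9.70 (uninjected OIR), 9.75 and 9.73 (PBS) and 9.81 and 9.84 (ISOX DUAL). At day 7 Bbs2 read 8.65 and 8.10, against 9.00 and 9.23 in untreated day 17 retina, 9.24 and 8.91 in uninjected OIR, 9.04 and 9.06 after PBS and 9.04 and 9.07 after ISOX DUAL. For both genes the day 7 arrays differ from each other, by 0.47 and 0.55 log2, and both still lie below every day 17 array. The log2 difference from day 7 to day 17 was 0.83 ± 0.15 for Bbs7 (adjusted p = 0.0136) and 0.74 ± 0.19 for Bbs2 (adjusted p = 0.0477).

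These calls rest unequally on single arrays. Without the second day 7 array the log2 differences were 0.95 for Arl3, 0.60 for Bbs7, 0.47 for Bbs2 and 0.31 for Rpgrip1, and without the first they were 1.54, 1.07, 1.02 and 0.36. Rpgrip1 missed the threshold when any of the 10 arrays was left out, Bbs2 when any but the first day 7 array was, and Bbs7 without the first untreated day 17 array. Without the first day 7 array, the higher of the 2 for 25 of the 31 genes, more of the 31 passed. The shares of all genes called in fits that leave out an array are not given here, so such counts have no background. Leaving out the first untreated day 17 array gave 3 calls (Arl3 and Tulp1 higher, Rpgr lower), and leaving out any other array gave 2. With only the 4 arrays compared in the fit, none was called, and the adjusted p of Arl3 was 0.0756.

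**Figure D2:**
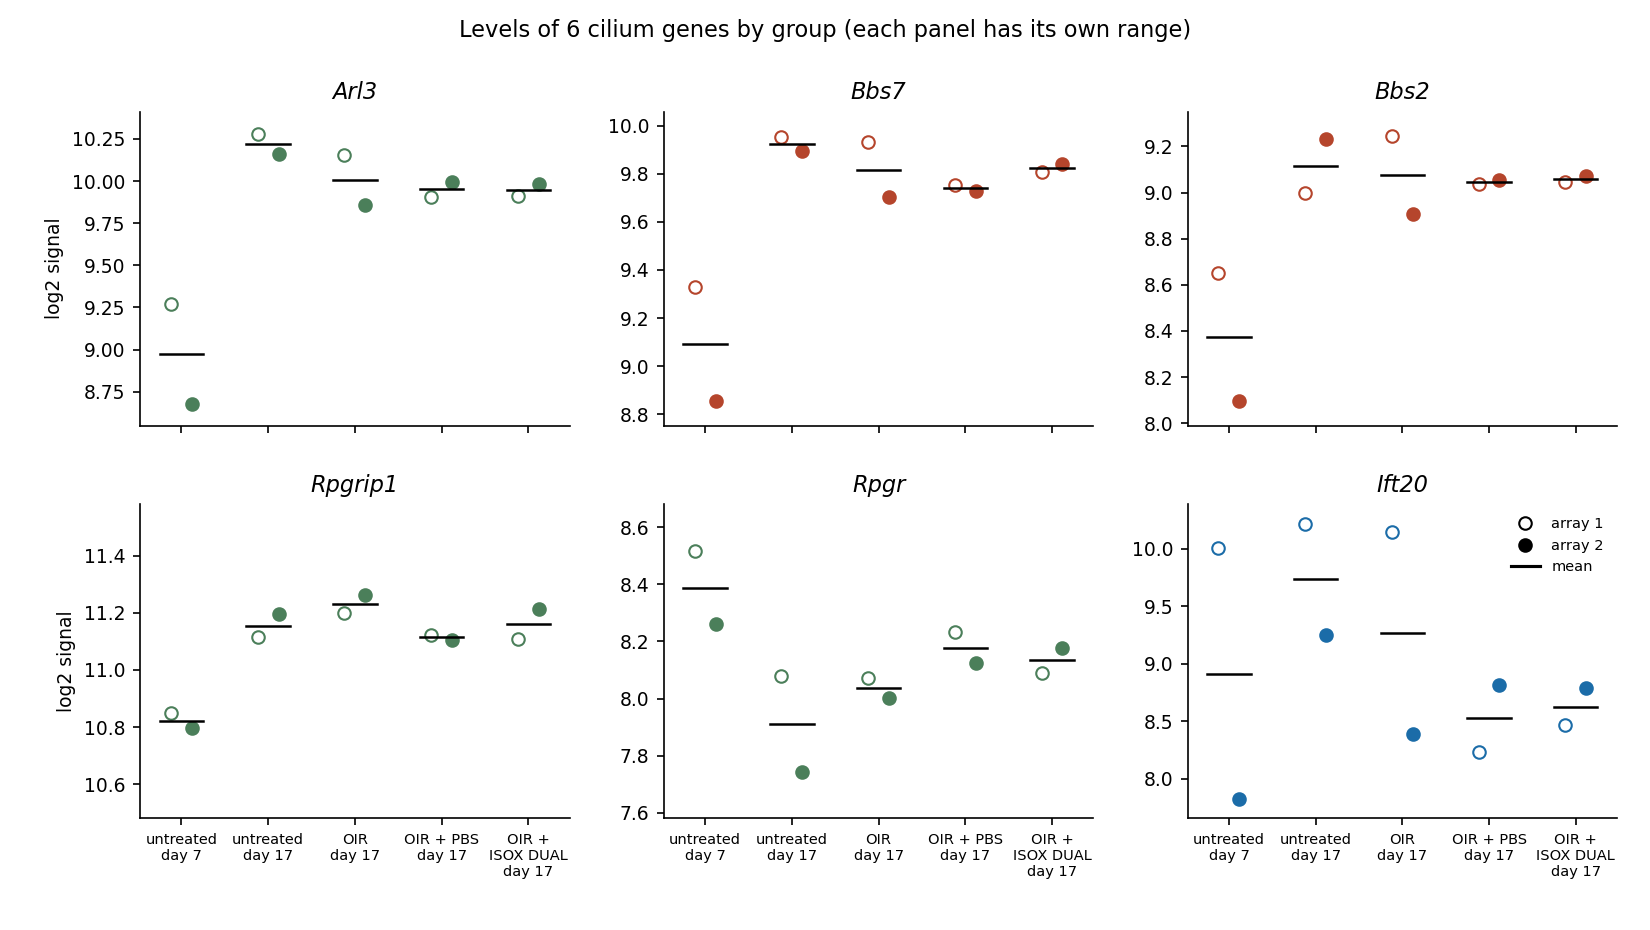
Log2 levels (vertical axis) of 6 genes on each array, by group (horizontal axis). Each panel has its own range; open points are the first array of a group, filled points the second, and bars the group mean. Arl3, Bbs7 and Bbs2 lie lowest at day 7, while the 2 arrays of a group can stand further apart than groups do for Ift20.

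The other BBSome subunits differed from day 7 in the same direction without passing the threshold. The log2 difference was positive for 8 of 8 subunits, with a median of 0.55 and a range of 0.18 (Bbs1) to 0.83 (Bbs7). Ttc8, a helical-repeat subunit, came nearest (0.69 ± 0.19, adjusted p = 0.0565), and its day 7 values of 9.27 and 8.67 lay below the 8 day 17 values of 9.42 to 9.73. Bbs4 read 8.84 and 8.16 at day 7, 9.16 and 8.92 in untreated day 17 retina, 9.24 and 8.66 in uninjected OIR, 8.76 and 8.79 with PBS and 8.84 and 8.87 with ISOX DUAL. For Bbs5 the arrays gave 8.62 and 7.88 (day 7), 8.90 and 8.73 (untreated day 17), 9.24 and 8.68 (uninjected OIR), 8.76 and 8.84 (PBS) and 8.85 and 8.93 (ISOX DUAL). Bbs4 holds helical repeats like Ttc8, and Bbs5 carries lipid-binding domains. Both day 7 arrays lay below all day 17 arrays for Bbs5, whereas the first day 7 array for Bbs4 was inside the day 17 range. Their differences between the untreated ages were 0.54 ± 0.25 and 0.56 ± 0.25 (adjusted p = 0.249 and 0.242).

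At day 7 Bbs1 read 8.24 and 8.70, against 8.27 and 9.03 in untreated day 17 retina, 8.51 and 8.99 in uninjected OIR, 9.02 and 8.98 after PBS and 9.04 and 8.95 after ISOX DUAL. Bbs1, the subunit that meets the membrane-bound GTPase recruiting the coat, overlapped between the ages, and its second array exceeded its first by 0.46, 0.76 and 0.48 in the 3 uninjected groups. Bbs9, a further subunit of the core, read 9.98 and 9.99 at day 7 and 10.16 to 10.54 over the day 17 arrays (difference 0.27 ± 0.11, adjusted p = 0.179). Bbip1, the smallest subunit, overlapped (0.20 ± 0.29).

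Mkks, Bbs10 and Bbs12 resemble chaperonins and assemble the BBSome core around Bbs2, Bbs7 and Bbs9. None of these 3 assembly factors passed the threshold. All 3 had day 17 arrays above both day 7 arrays in untreated retina, as did 20.7% of all genes tested. The log2 differences were 0.79 ± 0.22 for Bbs12, 0.62 ± 0.18 for Mkks and 0.28 ± 0.09 for Bbs10 (adjusted p = 0.0654, 0.0650 and 0.0847). Bbs12 read 7.75 and 7.19 at day 7, 8.36 and 8.16 in untreated day 17 retina, 8.85 and 8.33 in uninjected OIR, 8.30 and 8.16 with PBS and 8.23 and 8.02 with ISOX DUAL. Bbs12 was highest on the first uninjected OIR array, and its day 17 arrays span 0.82 log2. For Mkks the arrays gave 7.41 and 6.93 (day 7), 7.97 and 7.62 (untreated day 17), 7.63 and 7.44 (uninjected OIR), 7.35 and 7.35 (PBS) and 7.44 and 7.40 (ISOX DUAL). At day 7 Bbs10 read 6.68 and 6.65, against 6.96 and 6.93 in untreated day 17 retina, 6.91 and 6.86 in uninjected OIR, 6.75 and 6.77 after PBS and 6.78 and 6.65 after ISOX DUAL. Both PBS values of Mkks lay below its first day 7 value, and the second ISOX DUAL value of Bbs10 fell inside the day 7 values.

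Of the 11 IFT-B subunits 0 were called, 9 had a positive difference, and the median was 0.16, with 1 (Ift80) at an unadjusted p under 0.05. The Ift88 levels were 8.09 and 7.78 at day 7 and 8.05 and 7.91 at day 17 without treatment, then 8.02 and 7.86 in uninjected OIR, 7.95 and 7.90 with PBS and 7.93 and 7.96 with ISOX DUAL. Ift88, a core subunit whose loss impairs outer segment formation, differed by 0.05 ± 0.12 between the ages (95% interval -0.24 to 0.33), and the groups overlapped. For Ift172 the arrays gave 7.33 and 7.50 (day 7), 7.47 and 7.95 (untreated day 17), 7.77 and 7.95 (uninjected OIR), 7.84 and 7.75 (PBS) and 7.75 and 7.79 (ISOX DUAL). Ift172, a peripheral subunit of the IFT-B complex, differed by 0.30 ± 0.16 (adjusted p = 0.325). Ift80 read 7.63 and 7.32 at day 7, 7.80 and 7.76 in untreated day 17 retina, 7.75 and 7.67 in uninjected OIR, 7.55 and 7.45 with PBS and 7.54 and 7.50 with ISOX DUAL. Ift80, another peripheral subunit, differed by 0.31 ± 0.11 (adjusted p = 0.150).

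Ift20, a subunit that also resides at the Golgi and links it to the cilium, had the widest spread of the 31. At day 7 Ift20 read 10.01 and 7.82, against 10.22 and 9.25 in untreated day 17 retina, 10.14 and 8.39 in uninjected OIR, 8.24 and 8.81 after PBS and 8.47 and 8.79 after ISOX DUAL. The arrays of a group stand up to 2.18 log2 apart at day 7, so its difference of 0.82 ± 0.77 between the ages lies within that spread. Among the other IFT-B subunits, the tubulin-binding partners Ift74 and Ift81 differed by 0.12 ± 0.27 and 0.16 ± 0.11, and the GTPase-related Ift22 and Ift27 by 0.24 ± 0.20 and 0.10 ± 0.27. Ift46 and Ift52, which lie in the core, had lower untreated day 17 arrays without passing the threshold (-0.16 ± 0.11 and -0.14 ± 0.11).

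The 3 IFT-A subunits had differences of -0.06 ± 0.14 (Ift122), -0.01 ± 0.17 (Ift140) and 0.25 ± 0.35 (Ift43), none called. Ift140 read 7.15 and 7.39 at day 7, 7.01 and 7.51 in untreated day 17 retina, 7.16 and 7.39 in uninjected OIR, 7.52 and 7.40 with PBS and 7.38 and 7.43 with ISOX DUAL. For Ift122 the arrays gave 7.55 and 7.72 (day 7), 7.37 and 7.78 (untreated day 17), 7.65 and 7.84 (uninjected OIR), 7.93 and 7.85 (PBS) and 7.88 and 7.88 (ISOX DUAL). For both genes the second array exceeded the first in each of the 3 uninjected groups, and the ages overlapped. Ift43 went the other way, with 8.15 and 7.27 at day 7.

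At the gate of the cilium the genes split. At day 7 Rpgr read 8.52 and 8.26, against 8.08 and 7.74 in untreated day 17 retina, 8.07 and 8.00 in uninjected OIR, 8.23 and 8.13 after PBS and 8.09 and 8.18 after ISOX DUAL. Rpgr, the scaffold that Rpgrip1 anchors, read lower at day 17 than at day 7 on all 8 arrays without passing the threshold (-0.48 ± 0.14, adjusted p = 0.0691). Tulp1 read 9.05 and 9.05 at day 7, 9.25 and 9.72 in untreated day 17 retina, 9.49 and 9.60 in uninjected OIR, 9.72 and 9.81 with PBS and 9.60 and 9.71 with ISOX DUAL. Tulp1, needed for opsin transport in photoreceptors, read higher than both day 7 arrays on all 8 day 17 arrays, likewise short of the threshold (0.44 ± 0.15, adjusted p = 0.119). The Cep290 levels were 9.98 and 8.93 at day 7 and 9.83 and 9.03 at day 17 without treatment, then 9.55 and 9.17 in uninjected OIR, 9.23 and 9.08 with PBS and 9.19 and 9.25 with ISOX DUAL. For Rpgrip1l the arrays gave 7.19 and 6.65 (day 7), 7.26 and 6.63 (untreated day 17), 7.04 and 6.84 (uninjected OIR), 6.84 and 6.68 (PBS) and 6.74 and 6.67 (ISOX DUAL). Cep290 and Rpgrip1l build the transition zone at the base of the cilium. Their day 7 and day 17 values overlapped (-0.03 ± 0.36 and 0.02 ± 0.23), and the first array was the higher in each of the 3 uninjected groups.

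Over all day 17 arrays, treated or not, 9 genes lay above both day 7 arrays on all 8 (Arl3, Bbs2, Bbs5, Bbs7, Bbs9, Bbs12, Ttc8, Rpgrip1 and Tulp1), against 10.2% of all genes tested. Rpgr and Ift46 lay below both on all 8, against 12.4%. None of the 9 is an IFT subunit. At a background of 10.2% few IFT subunits would lie so, and no difference between roles is read from it. Between the untreated groups alone, 13 of the 31 genes did not overlap with day 17 higher (background 20.7%) and 3 with day 17 lower (19.7%).

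**Figure D3:**
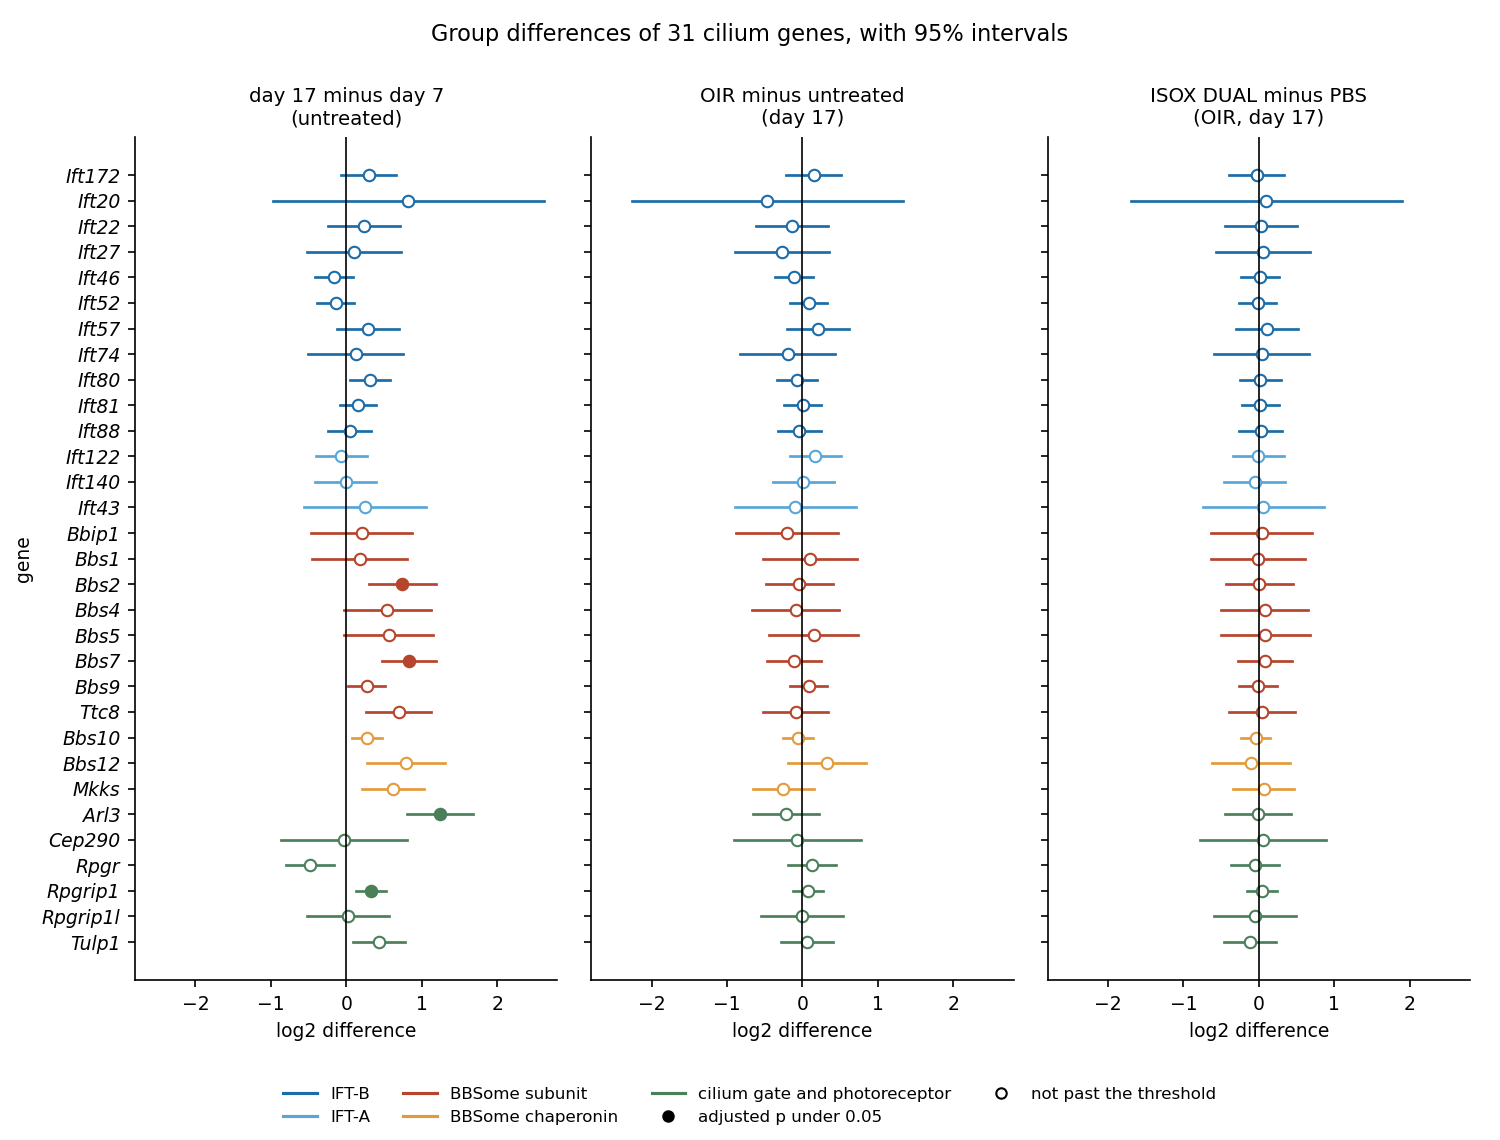
Log2 difference of each gene (rows, by role) in 3 comparisons (panels: age, OIR, and ISOX DUAL against PBS), with bars for the 95% interval of the limma fit. Filled points passed the threshold. Differences from day 7 to day 17 lie mostly right of 0 for BBSome genes, and every interval of the other panels includes 0.

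Markers of many retinal cell types moved with age in the same arrays, where 10.6% of all genes were called. From day 7 to day 17 the rod list had 10 of 12 genes higher and 0 lower (median log2 difference 1.54), and the cone list 6 of 9 higher (median 1.09). The rod mean was 8.87 to 9.63 over the day 7 arrays and 10.96 to 11.14 over the untreated day 17 arrays. The bipolar list had 5 of 10 higher and 1 lower (median 1.64), Mueller glia 4 of 9 higher and 2 lower, endothelium 4 of 9 higher and 1 lower, and pigment epithelium 4 of 10 higher and 0 lower. Progenitor genes had 4 of 6 lower (median -1.34). The part of cell composition in the differences of Arl3, Bbs7, Bbs2 and Rpgrip1 was not tested.

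The 250 bases before the transcription start of the 4 genes that rose are shown because these genes passed the threshold between the ages. The X-box, the motif read by RFX factors at many cilium genes, can be looked for in them. So can the core read by the photoreceptor factor CRX. Sequences are RefSeq's for GRCm38.p6, 5′ to 3′ on the strand of the gene: Arl3 from chr19:46573183-46573432 (minus strand), Bbs7 from chr3:36613390-36613639 (minus), Bbs2 from chr8:94098510-94098759 (minus) and Rpgrip1 from chr14:52110653-52110902 (plus). Capitals mark matches to a motif, on either strand, and the last base stands just before the start.
Arl3: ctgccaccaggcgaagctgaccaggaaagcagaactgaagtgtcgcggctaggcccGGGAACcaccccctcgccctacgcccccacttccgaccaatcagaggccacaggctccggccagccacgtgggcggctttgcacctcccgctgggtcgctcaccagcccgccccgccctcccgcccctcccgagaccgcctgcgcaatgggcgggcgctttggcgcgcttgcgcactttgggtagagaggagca
Bbs7: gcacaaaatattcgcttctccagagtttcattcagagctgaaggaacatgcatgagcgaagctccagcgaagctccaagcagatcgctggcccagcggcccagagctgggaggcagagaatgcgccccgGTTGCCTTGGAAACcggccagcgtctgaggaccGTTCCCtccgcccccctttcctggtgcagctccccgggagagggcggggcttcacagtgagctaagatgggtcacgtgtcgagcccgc
Bbs2: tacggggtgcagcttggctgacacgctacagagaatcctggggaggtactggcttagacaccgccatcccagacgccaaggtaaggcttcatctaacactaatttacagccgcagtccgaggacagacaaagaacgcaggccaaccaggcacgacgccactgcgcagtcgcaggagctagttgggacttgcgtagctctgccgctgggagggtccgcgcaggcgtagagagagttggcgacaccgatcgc
Rpgrip1: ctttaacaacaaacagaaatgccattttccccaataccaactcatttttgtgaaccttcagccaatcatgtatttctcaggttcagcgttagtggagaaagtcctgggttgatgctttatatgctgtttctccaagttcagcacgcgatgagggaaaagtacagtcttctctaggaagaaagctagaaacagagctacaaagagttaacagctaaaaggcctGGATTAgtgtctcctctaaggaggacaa

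Motifs were chosen after the values were seen, and a match describes letters, not a bound site. The windows searched hold 250 bases before and 50 after the start, and 28 of the 31 genes have an entry (all but Ift80, Ift81 and Ift122). The full X-box, searched as GTNNCC and its reverse complement GGNNAC with 2 bases between them, was found in 5 of 28 genes (17.9%: Bbs1, Bbs4, Bbs7, Ift22 and Ift57), against 2.16% of the 27025 genes with a window. In Bbs7 it reads GTTGCCTTGGAAAC from -121 to -108. A single arm of it, GTTNCC or its reverse complement GGNAAC, which the full motif can contain, was found in 21 of 28 (75%), against 48.8% of all genes. All 9 IFT-B genes with a window hold an arm, as do 5 of 8 BBSome subunits. Of the genes that rose, Arl3 holds an arm (GGGAAC, -194 to -189), Bbs7 holds the full motif and a further arm, and Bbs2 holds no match to the motifs searched. The CRX core, TAATCC or GGATTA, was in 2 of 28 (7.14%: Bbs1 and Rpgrip1), against 8.14% of all genes. In Rpgrip1 it lies at -28 to -23, in a stretch with the lowest GC content among the 28 genes (41.6%, against a median of 58.8%). The median over all genes was lower, at 52%, and the part of GC content in the shares of matches was not tested. The full motif was thus present in 1 of the 4 genes that rose, and in Bbs1, Bbs4, Ift22 and Ift57, which were not called.

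Uninjected OIR was compared with untreated retina of the same day to ask which genes the model changes. None of the 31 genes was called by limma, against 0.495% of all genes tested (0.456% higher and 0.0387% lower), and 0 had an unadjusted p under 0.05, against 6.1%. The differences ran from -0.47 ± 0.77 (Ift20) to 0.33 ± 0.22 (Bbs12), with a median of -0.04 for the 31 genes and -0.04 for all genes. For 30 of the 31 the 95% interval lay within 1 log2 unit of 0, and for 17 within 1.5-fold. The gene outside 1 log2 unit was Ift20, whose interval was -2.26 to 1.33. The intervals measure the spread between arrays, which may be technical, and differences of dimmer genes may be compressed. They therefore do not bound a change between animals. The median of the 31 turns on the uninjected OIR arrays: without the first it was -0.13 and without the second 0.05.

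The smallest p-values were those of Bbs12, Mkks and Ift57, none past the threshold. Bbs12 read 8.85 and 8.33 in uninjected OIR against 8.36 and 8.16 in untreated retina, so the groups overlap. Mkks read 7.63 and 7.44 against 7.97 and 7.62, also with overlap, a difference of -0.26 ± 0.18 (95% interval -0.66 to 0.15). For Ift57 the arrays gave 8.18 and 7.66 (day 7), 8.34 and 8.06 (untreated day 17), 8.49 and 8.34 (uninjected OIR), 8.06 and 8.22 (PBS) and 8.21 and 8.29 (ISOX DUAL). Ift57, a peripheral IFT-B subunit, differed by 0.21 ± 0.18 in OIR. Arl3, the gene that rose most with age, differed by -0.22 ± 0.19 (95% interval -0.66 to 0.22), and Rpgrip1 by 0.08 ± 0.09. The OIR arrays lay above the untreated arrays without overlap for 1 gene, Rpgrip1 (background 9.44%), and below for Bbs10, Ift80 and Arl3 (19%).

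By role the median difference in OIR was -0.07 for the BBSome subunits, -0.06 for the assembly factors, -0.07 for IFT-B, 0.01 for IFT-A and 0.03 for the gate and photoreceptor genes. The rod mean was 11.05 and 10.87 in uninjected OIR against 10.96 and 11.14 in untreated retina, and 0 of the 12 rod genes was called.

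ISOX DUAL was then compared with PBS in OIR, where the eyes of both groups were injected. None of the 31 genes was called, and none of all 23255 was (0%). At an unadjusted p under 0.05 there were 0 of the 31 and 1.02% of all genes. The median difference was 0.02, against 0.01 over all genes, and the range was -0.11 ± 0.15 (Tulp1) to 0.11 ± 0.18 (Ift57). The 95% interval lay within 1 log2 unit of 0 for 30 of the 31 genes and within 1.5-fold for 20. Between the same arrays the difference was positive for 16 of 16 lens genes (median 0.79), none called. It was positive for 0 of 9 retinal ganglion cell genes (median -0.37), none called. The part of tissue content in this comparison was not tested.

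The genes of smallest p were Tulp1, Ift57 and Rpgrip1, none past the threshold. Tulp1 read 9.60 and 9.71 with ISOX DUAL against 9.72 and 9.81 with PBS, without overlap. Rpgrip1 read 11.11 and 11.21 against 11.12 and 11.11, with overlap (0.05 ± 0.09, 95% interval -0.15 to 0.25). Of the other genes that rose with age, Arl3 differed by -0.01 ± 0.19, Bbs7 by 0.08 ± 0.15 and Bbs2 by 0.01 ± 0.19. ISOX DUAL arrays lay above PBS arrays without overlap for 7 genes (Mkks, Bbip1, Bbs4, Bbs5, Bbs7, Ttc8 and Ift46, background 16.6%) and below for Ift52 and Tulp1 (11.5%). Of those 7, 5 are BBSome subunits, and their differences ran from 0.04 to 0.08.

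Each injected group was also set against uninjected OIR, and both comparisons use the same 2 uninjected arrays. With PBS 0 of the 31 genes was called (0% of all genes), and with ISOX DUAL 0 (0.0043%). At an unadjusted p under 0.05 there were 0 of the 31 in both, against 4.29% of all genes in each. The difference was negative for 24 of the 31 genes with PBS (median -0.12) and for 22 with ISOX DUAL (median -0.07), where the medians of all genes were 0.01 and 0.02. These medians turn on the first uninjected OIR array: without it they were 0.05 and 0.05, and without the second array -0.20 and -0.21.

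Bbs12 had the lowest p with ISOX DUAL (-0.46 ± 0.22, 95% interval -0.98 to 0.05, adjusted p = 0.991) and differed by -0.36 ± 0.22 with PBS. Its 4 injected values, 8.02 to 8.30, lay below both uninjected OIR values and beside the untreated values of 8.36 and 8.16. The difference of Ift80 was -0.21 ± 0.11 in the PBS group and -0.19 ± 0.11 in the ISOX DUAL group. For Bbs10 these values were -0.13 ± 0.09 and -0.17 ± 0.09. All 3 assembly factors read below the uninjected arrays in both injected groups, by up to 0.46 log2, none called. With PBS 4 genes lay above uninjected OIR without overlap (Ift122, Ift140, Rpgr and Tulp1, background 20.9%) and 7 below (Bbs10, Bbs12, Mkks, Ift57, Ift80, Rpgrip1 and Rpgrip1l, 15.3%). With ISOX DUAL 3 lay above (Bbs9, Ift122 and Rpgr, 25.7%) and 6 below (Bbs10, Bbs12, Mkks, Ift57, Ift80 and Rpgrip1l, 15.4%). Lens genes averaged 6.51 and 7.87 on the ISOX DUAL arrays and at most 6.37 on the others. Retinal ganglion cell genes had a negative difference for 9 of 9 in both comparisons, none called, with medians of -0.52 (PBS) and -0.93 (ISOX DUAL). Their mean was 8.26 and 7.90 on the uninjected OIR arrays, 7.29 and 7.99 with PBS, and 7.51 and 7.08 with ISOX DUAL. The part of these cell types in the differences of the 31 genes was not tested.

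**Figure D4:**
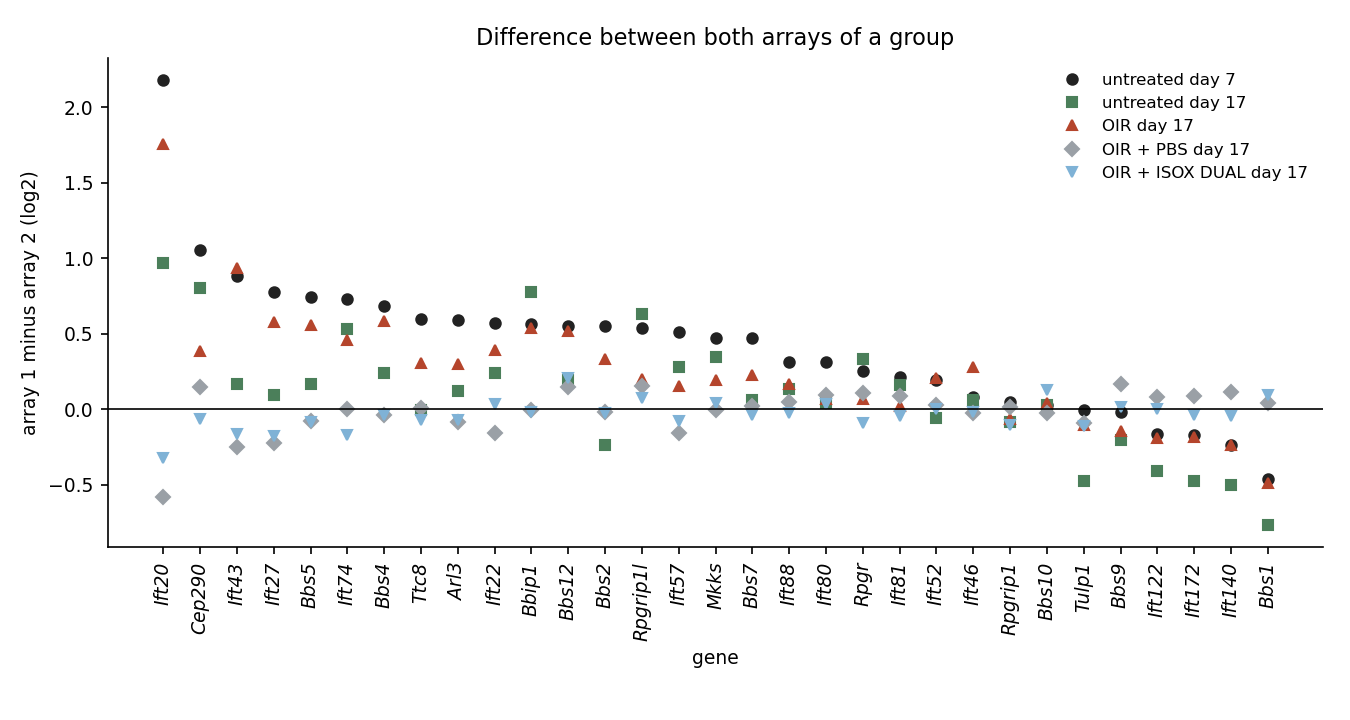
Difference between the first and the second array of each group (vertical axis, log2) for the 31 genes (horizontal axis), with a symbol and colour for each group. Most points lie above 0 for the 3 uninjected groups and nearer 0 for the injected groups, and the day 7 point of Ift20, at 2.18, is the highest.

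The arrays of a group differed from each other in a pattern that the genes share. In 21 of the 31 genes (67.7%) the first array was higher in all 3 uninjected groups, against 23.4% of all genes tested, and in 6 (Bbs1, Bbs9, Ift122, Ift140, Ift172 and Tulp1, 19.4%) it was lower in all 3, against 34.8%. The median size of the difference between arrays over the 31 genes was 0.48 at day 7, 0.24 in untreated day 17 retina and 0.23 in uninjected OIR, and 0.09 with PBS and 0.07 with ISOX DUAL. Over all genes it was 0.22, 0.18, 0.16, 0.10 and 0.07. Ift20 reached 2.18, 0.97 and 1.76 in the uninjected groups and -0.58 with PBS. For IFT-B, 10 of 11 subunits were higher on the first array at day 7, 9 in untreated day 17 retina and 10 in uninjected OIR. Of all 23255 genes tested, 9644, 10222 and 10786 were higher on the first array in these groups.

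Small nucleolar RNAs, nuclear transcripts outside the cilium, also differed between these arrays. The mean over 62 such genes was 7.74 on the first and 8.66 on the second day 7 array, 7.31 and 8.30 in untreated day 17 retina, and 7.78 and 8.36 in uninjected OIR. It was 9.19 and 8.49 with PBS and 8.55 and 8.44 with ISOX DUAL. The part of RNA quality or array handling in the differences of the cilium genes was not tested. The same arrays enter the medians against uninjected OIR given above and the day 7 level, where the first array was higher for 25 of the 31 genes.

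Genes around the same machinery were drawn from 10 lists of other cilium genes, with 108 genes on the array and 104 tested. From day 7 to day 17, 9 rose and 4 fell, with a median of 0.06. Of all genes tested, 5.26% were called higher and 5.29% lower, and nothing particular to these lists is read from the counts. Hspb11, the partner of Ift27, was the sole call among 8 IFT subunits under other symbols (0.47 ± 0.12, adjusted p = 0.0420), and 0 of the 11 IFT motor genes were called (median 0.21). Unc119 and Cys1 rose among 5 genes of lipid-anchored cargo transport (0.76 ± 0.17 and 0.64 ± 0.12). UNC119 is a carrier from which ARL3 releases cargo. Rab8b fell among 7 BBSome partners (-0.64 ± 0.13, adjusted p = 0.0222).

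Of 20 transition zone genes, 1 rose, Cc2d2a (0.50 ± 0.12, adjusted p = 0.0335). Among 16 basal body genes Cep164 rose (0.66 ± 0.14) and Poc1b fell (-0.54 ± 0.10). Of 13 genes of the photoreceptor axoneme and connecting cilium, Fam161a (1.57 ± 0.16, adjusted p = 0.00112), Whrn and Ttll5 rose and Agbl5 fell, with a median of 0.34. Among 14 motile cilia genes Dnah9 rose and Rsph9 fell, and 0 of 3 tubby family genes were called. In uninjected OIR against untreated retina 1 of the 104 was called, against 0.495% of all genes tested, and nothing particular to these lists is read from it. The gene was Rfx2, of the family that reads the X-box, which rose by 2.36-fold (8.43 against 7.19 on average, adjusted p = 0.0239, limma). Rfx2 averaged 7.72 with PBS and 8.03 with ISOX DUAL. Its bearing on the levels of other genes was not tested. None of the 104 was called in the other 3 comparisons.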

How the data were processed

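Total RNA of whole retina was extracted with Trizol and hybridised to Affymetrix whole-transcript arrays, per the labels' protocols. The authors deposited log2 values for each array. That scale was inferred from their range (1.03 to 13.67 over the clusters used), with software, background correction and normalization not given in the sources used here. Values were not normalized again. Of 72688 rows, 6732 controls were set aside; 30604 clusters carry 1 symbol, updated through Entrez identifiers to RefSeq GRCm38.p6. A gene is its cluster of highest mean (30063 genes), tested if at least 2 arrays exceeded their own 30th percentile (23255 genes). Groups come from the titles. Group differences come from a fit by limma 3.58.1, run under R 4.3.3 (lmFit, then eBayes, over all 10 arrays, 5 residual and 2.76 prior degrees of freedom). Benjamini-Hochberg adjustment ran over all genes tested, with a threshold of 0.05. The ± is the standard error, set by the spread of each gene and the number of arrays. Its median was 0.134 log2 over all genes tested and 0.177 over the 31 genes. The fitting steps were run on simulated data with noise drawn independently for each gene and array. Such data lack the differences between arrays that genes share here, so they do not measure the error rate of these fits. The genes, lists and settings were chosen with earlier results of these data known. Values on every array are given for called genes, for the 3 of smallest p where fewer were called, and for a fixed set; of other lists, called genes are named. Other scalings, filters, fits and leaving out each array were tried.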

Additional observations from a re-analysis of the deposited data

How the results depend on the processing

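The count of genes called from day 7 to day 17 (4) moved by more than 1.5 times in 17 of 20 other settings. Each of the 31 genes is on 1 cluster, so taking the mean of a gene's clusters left their values unchanged. The count stayed at 4 with that mean and with a 50th percentile filter. It was 2 with array weights, with arrays centred on their medians, without a filter and with a trended, robust fit, 0 with only the arrays compared, 7 after quantile normalization (6 higher and 1 lower), and 2 to 8 when 1 array was left out. Arl3 passed in 19 of the 20 settings, Bbs7 in 18, Bbs2 in 6 and Rpgrip1 in 4; adjusted p ran from 0.000971 to 0.0756 for Arl3. With the array number as a replicate block the count was 8 (7 higher and 1 lower), adding Ttc8, Bbs12, Mkks and Rpgr; the numbers are not stated to pair arrays, and first-minus-second differences correlated at 0.583 to 0.809 among uninjected groups, 0.399 between injected groups and -0.0567 to -0.406 across them. Crossed numbers, a setting chosen after seeing the data, also gave 8. The shares of all genes called in these other settings are not given here, so the counts have no background. The block changed no call in the other 4 comparisons, whose counts were 0 in all 20 settings. Leaving out 1 array, the median difference of the 31 genes was 0.11 to 0.49 from day 7 to day 17, -0.125 to 0.0534 for OIR against untreated, -0.0024 to 0.0297 for ISOX DUAL against PBS, -0.20 to 0.052 for PBS and -0.21 to 0.052 for ISOX DUAL against uninjected OIR. The direction of Arl3, Bbs7, Bbs2 and Rpgrip1 was the same in every setting. Both their day 7 arrays lay below both untreated day 17 arrays, so leaving out an array could not have turned it. Centring or quantile scaling moved the median of all genes by less than 0.1 log2. With 2 arrays a group, low signal and wide intervals limit the dimmer genes.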
